A study of Mus musculus with 6 samples.

Results

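Genes of the tumor necrosis factor (TNF) superfamily were examined in the transcriptome of senescent fibroadipogenic progenitors (FAPs), the mesenchymal cells that lie between the fibers of skeletal muscle. The members were every listed gene whose symbol begins with Tnfsf or Tnfrsf, plus Tnf, Ltbr, Fas, Cd40, Ngfr, Eda2r and Relt, which gave 33 of the 16894 genes in the table. By role they comprised 6 death receptors, 12 NF-kB receptors, 4 decoy receptors, 10 ligands and 1 antisense RNA, Tnfsf13os. The other family genes sought for the same roles (Edar, Tnfrsf11a, Tnfrsf13b, Tnfrsf13c, Tnfrsf17, Ltb, Tnfsf4, Tnfsf10 and Tnfsf14) were not analysed here.

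Ligands of this superfamily are membrane proteins or shed cytokines that assemble as trimers and cluster their receptors on the target cell. Death receptors carry a cytoplasmic death domain that can recruit FADD and caspase-8, or TRADD and RIPK1. The other signaling receptors bind TRAF adaptor proteins, which activate NF-kB and MAP kinases, while decoy receptors bind a ligand without passing on the death signal. In skeletal muscle the family is best known for TNF and its relative TWEAK, cytokines linked to inflammation and muscle wasting.

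Bulk RNA-seq compared primary FAPs in culture, taken from the hindlimb muscles of C57BL/6 mice aged 3 to 6 months, in 2 groups of 3 replicates. Control FAPs were non-senescent, and senescent FAPs had been exposed to etoposide, a topoisomerase II inhibitor, at 20 μM for 48 h and then kept in normal medium for 5 days. The cells came from a magnetic sort for SCA-1 that removed cells bearing CD45, CD31 or α7-integrin, so the cultures model FAPs outside muscle, under a single chemical stressor. Nothing in the sources used here states whether replicates came from separate animals, so p-values measure the spread between these samples.

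Each library held 41412179 to 59912520 reads on genes, and values are CPM, read counts scaled to the effective size of each library, in which 1 read is worth 0.0167 to 0.0225 CPM. The groups carried the marks of their labels. Cdkn1a, which encodes the cell cycle inhibitor p21, averaged 290 ± 40.5 CPM in control and 1038 ± 21.4 CPM in senescent FAPs (SD, n = 3). The proliferation marker Mki67 averaged 158 ± 78.6 CPM and 12.7 ± 5.49 CPM. All 8 FAP markers sought were listed and tested, and 5 of them differed between the groups: Cd34, Lum, Dcn and Ly6a rose and Col1a1 fell. The share of all genes tested that differed was 46.1%. The call of Ly6a was lost in at least 1 of the alternative fits described below (highest adjusted p over them = 0.122). Col1a1 had 9978 to 21130 CPM in control and 2353 to 4073 CPM in senescent libraries, while Pdgfra, Pdgfrb and Col3a1 were not called. In such bulk samples a smaller share of cells of a kind and less RNA per cell cannot be told apart. Transcripts of markers removed by the sort were present. Itga7 (α7-integrin) averaged 11.1 ± 1.69 and 20.2 ± 4.05 CPM, and Pecam1 (CD31) 0.706 ± 0.289 and 1.70 ± 0.152 CPM (SD, n = 3). Both were higher in senescent FAPs (adjusted p = 0.00771 and 0.00897, limma), and Ptprc (CD45) was not analysed here. The part of such cells in the results was not tested.

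Of the 33 members, 31 reached 0.5 CPM in at least 3 libraries and were tested. The exceptions were Tnf and Tnfsf13os. Across all genes tested, 46.1% differed between the groups by limma with Benjamini-Hochberg adjustment at 0.05, with 21.8% higher and 24.3% lower in senescent FAPs. Among the tested members 18 (58.1%) differed, 16 of them higher (51.6%) and 2 lower. Their median log2 fold change was 0.34, against -0.03 over all genes tested, on the scale of log2(CPM + 0.5) that all log2 fold changes here use. The groups did not overlap in 19 of the 31 members, 17 with senescent values above and 2 below, while 57.4% of all genes tested showed no overlap in either direction, so the share without overlap was close to that of all genes. Tnfrsf8 and Tnfrsf18 passed the low-value filter only through the senescent libraries. Cd40 and Tnfsf18 reached 0.5 CPM in 1 control library each and Ngfr in 2, against 3 senescent libraries each. For these reasons the counts are not evidence for the family as a set. Dividing by column totals instead of the deposited scaling moved the median of all genes to 0.17, and 18 members were then higher and 0 lower.

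**Figure D1:**
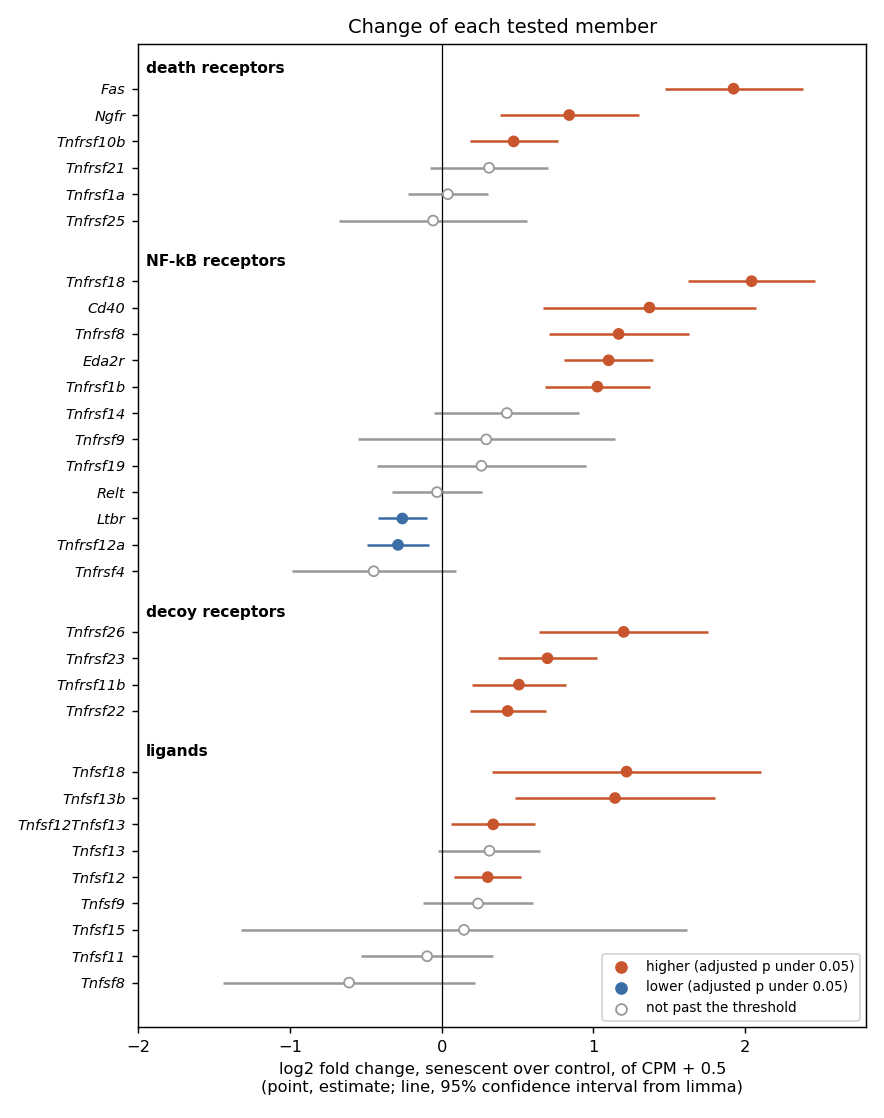
Log2 fold change (senescent over control, of CPM + 0.5; horizontal axis) of the 31 tested members, grouped by role, with points marking the estimate and lines its 95% confidence interval. Tnfrsf18 (2.04) and Fas (1.92) lie farthest to the right, while Ltbr (-0.26) and Tnfrsf12a (-0.29) are the members called lower.

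By role, 3 of 6 death receptors rose and 0 fell, and 5 of 12 NF-kB receptors rose and 2 fell. All 4 genes grouped as decoy receptors rose, and 4 of 9 tested ligands rose and 0 fell. The median log2 fold changes were 0.39, 0.36, 0.60 and 0.30 in that order. Across all genes tested, 21.8% were called higher and 24.3% lower. With so few genes in a role, these counts are not evidence about any role. Of the decoy receptors, Tnfrsf22 and Tnfrsf11b lost the call when certain single libraries were left out. Tnfrsf26, Tnfrsf22 and Tnfrsf23 are related neighbors that may share reads. Among the ligands that rose, Tnfsf12 and the readthrough transcript Tnfsf12Tnfsf13 overlap and may share reads. Summed over a role, decoy receptors had 129 to 182 CPM in control and 216 to 248 CPM in senescent libraries, and death receptors 262 to 325 CPM and 345 to 354 CPM, with no overlap in either role. Tnfrsf23 made up most of the decoy receptor sum. Most of the death receptor sum was Tnfrsf1a, which was itself not called. The sums of NF-kB receptors (552 to 641 and 622 to 653 CPM) and of ligands (55.1 to 112 and 69.8 to 124 CPM) overlapped between the groups.

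Promoter sequence was taken from RefSeq windows of the GRCm38.p6 build, which reach 250 bases before and 50 after a transcription start. A window was matched for 25 of the 33 members, 29 windows in all. The sequences shown belong to the 5 members with the smallest p that had a window, Tnfrsf18, Fas, Eda2r, Tnfrsf1b and Tnfrsf8, so that the DNA upstream of the receptors that changed most clearly can be read. They run 5′ to 3′ on the strand of the gene and stop before the first annotated start, and capitals mark matches to the kappa B consensus, the p53 decamer consensus, the AP-1 site TGANTCA or the TATA box TATAAA.
Tnfrsf18, chr4:156026072-156026163, plus strand: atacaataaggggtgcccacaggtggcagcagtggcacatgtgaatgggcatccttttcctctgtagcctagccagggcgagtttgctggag
Fas, chr19:34290409-34290658, plus strand: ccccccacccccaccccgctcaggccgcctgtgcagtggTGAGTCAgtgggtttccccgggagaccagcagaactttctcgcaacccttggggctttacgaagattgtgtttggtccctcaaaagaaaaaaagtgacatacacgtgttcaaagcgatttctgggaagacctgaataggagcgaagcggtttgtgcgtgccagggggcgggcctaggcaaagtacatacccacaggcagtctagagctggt
Eda2r, chrX:97377217-97377459, minus strand: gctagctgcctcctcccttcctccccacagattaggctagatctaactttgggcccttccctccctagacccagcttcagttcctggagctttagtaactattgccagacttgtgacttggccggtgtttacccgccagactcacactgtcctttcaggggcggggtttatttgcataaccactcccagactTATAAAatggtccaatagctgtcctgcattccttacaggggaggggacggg
Tnfrsf1b, chr4:145246871-145247120, minus strand: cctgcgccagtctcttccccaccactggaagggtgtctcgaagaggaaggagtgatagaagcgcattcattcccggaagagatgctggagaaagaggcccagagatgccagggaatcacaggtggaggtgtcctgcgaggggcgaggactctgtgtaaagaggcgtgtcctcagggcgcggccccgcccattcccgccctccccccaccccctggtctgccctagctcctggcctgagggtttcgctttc
Tnfrsf8, chr4:145315165-145315414, minus strand: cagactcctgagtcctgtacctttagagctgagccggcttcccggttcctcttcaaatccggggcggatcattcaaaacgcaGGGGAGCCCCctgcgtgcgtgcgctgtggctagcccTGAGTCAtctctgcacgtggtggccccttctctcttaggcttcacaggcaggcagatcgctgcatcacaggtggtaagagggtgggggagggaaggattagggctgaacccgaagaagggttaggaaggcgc

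In the Fas window an AP-1 match lay 211 bases before the RefSeq start. The Tnfrsf8 window held a kappa B match 168 bases and an AP-1 match 132 bases before its start, and that of Eda2r a TATA box match at 58 bases. No letters of these 4 motifs were found in the stretches shown for Tnfrsf18 and Tnfrsf1b. Both strands were searched and matches to different motifs were allowed to overlap. Among the 29 member windows, 2 held a kappa B match, 4 a p53 decamer match, 6 an AP-1 match and 5 a TATA box match. The 2 windows of Tnfsf13b overlap, and 1 p53 decamer match and 1 AP-1 match that they share were counted in both. The corresponding shares of all 32851 windows were 4.51%, 8.36%, 7.81% and 13.6%. The GC box GGGCGG was present in 16 of the 29 member windows and the E box CANNTG in 23 of the 29. Of all 32851 windows, 35.7% held a GC box and 72.3% an E box. A match describes letters in the window and says nothing of binding.

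Among the death receptors, Fas showed the clearest rise. Fas (chr19:34290666-34327772, plus strand), the receptor of Fas ligand that triggers apoptosis through FADD and caspase-8, had 6.58, 7.26 and 11.5 CPM in control replicates 1, 2 and 3 and 31.4, 31.3 and 35.3 CPM in senescent replicates 1, 2 and 3. Every senescent library was far above every control library. Its log2 fold change was 1.92 (SE 0.20, adjusted p = 4.08e-04, limma), and the ratio of the mean CPM was 3.86. Its ligand gene Fasl was not analysed here.

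Tnfrsf10b (chr14:69767472-69784411, plus strand), the mouse receptor of the death ligand TRAIL, had 55.2, 72.4 and 77.7 CPM in control and 94.7, 91.6 and 96.6 CPM in senescent FAPs. The groups did not overlap, and the senescent libraries lay closer together than the controls. The log2 fold change of 0.47 (SE 0.12, adjusted p = 0.0174, limma) was no longer called without senescent replicate 2 (adjusted p = 0.0507) or without senescent replicate 3 (0.0621). Its ligand gene Tnfsf10 was not analysed here.

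Ngfr (chr11:95568818-95587735, minus strand), the neurotrophin receptor with a death domain, was a low transcript. Its values were 0.491, 0.761 and 0.826 CPM in control and 1.95, 1.74 and 1.24 CPM in senescent FAPs, without overlap (log2 fold change 0.84, SE 0.20, adjusted p = 0.0108, limma). Schwann cells also express Ngfr. Of 6 Schwann cell markers sought, Sox10 and Foxd3 were not analysed here, and the other 4 summed to 3.44 to 7.55 CPM in control and 8.40 to 10.8 CPM in senescent libraries. S100b made up most of that sum. The part of such cells in the Ngfr result was not tested.

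The remaining death receptors were not called. Tnfrsf1a, the ubiquitous TNF receptor that carries the death domain, had 219, 170 and 226 CPM in control and 215, 207 and 205 CPM in senescent FAPs. Control replicate 2 was the lowest library and the groups overlapped throughout. The log2 fold change was 0.04, with a 95% confidence interval of -0.22 to 0.30 (adjusted p = 0.785, limma). Tnfrsf21, the death receptor DR6, averaged 9.17 ± 2.01 CPM and 11.4 ± 1.01 CPM (SD, n = 3; log2 fold change 0.31, adjusted p = 0.160, limma). This difference was called without control replicate 2 (adjusted p = 0.0223) and after division by column totals (0.0408). Tnfrsf25, a death receptor of lymphocytes, was at 0.266 to 0.870 CPM and 0.360 to 0.715 CPM (log2 fold change -0.06, adjusted p = 0.878, limma).

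**Figure D2:**
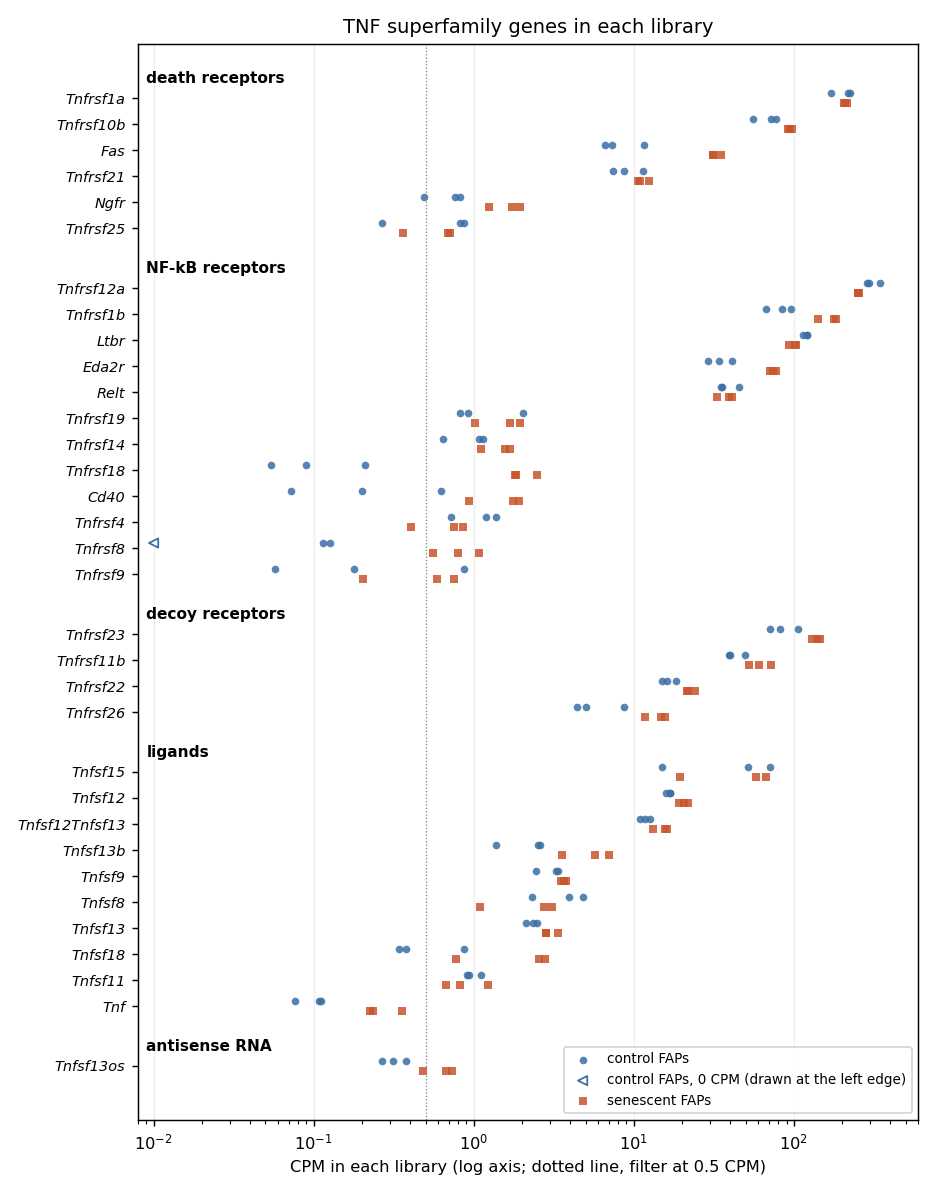
CPM of all 33 members in each library (horizontal, log axis; dotted line at the filter of 0.5 CPM), grouped by role, with circles for the 3 control and squares for the 3 senescent libraries and an open triangle for a value of 0. Fas, Eda2r and Tnfrsf1b separate into a control and a senescent cluster, while the Tnfrsf1a points (170 to 226 CPM) intermingle.

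The NF-kB receptors included the member with the largest fold change, Tnfrsf18, and both members that fell. Tnfrsf18 (chr4:156026164-156028895, plus strand), which encodes the T cell costimulatory receptor GITR, was nearly silent in control FAPs, with 0.0893, 0.209 and 0.0539 CPM, or 4, 11 and 3 reads. Senescent FAPs had 1.81, 2.49 and 1.85 CPM, or 91, 149 and 82 reads. The lowest senescent library thus lay well above the highest control. The log2 fold change was 2.04 (SE 0.18, adjusted p = 2.81e-04, limma), and because the added 0.5 CPM shrinks the change of low genes, the ratio of the mean CPM was larger, at 17.4.

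Eda2r (chrX:97333840-97377216, minus strand) encodes the receptor of the A2 form of ectodysplasin and is a known p53 target gene. It had 29.0, 33.9 and 41.1 CPM in control and 74.3, 70.7 and 77.7 CPM in senescent FAPs, with a wide gap between the groups (log2 fold change 1.10, SE 0.13, adjusted p = 6.06e-04, limma). Eda, the gene of its ligand and the only listed family gene outside the rule, averaged 4.68 ± 0.921 CPM and 6.31 ± 1.35 CPM (SD, n = 3). This difference was not called (log2 fold change 0.39, adjusted p = 0.136, limma), although it was called with the replicate number as a block and after division by column totals. Cd27, Cd40lg, Cd70, Fasl and Lta, the other family genes sought outside the rule, were not analysed here.

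Tnfrsf1b (chr4:145213463-145246870, minus strand), the second TNF receptor, which lacks a death domain and signals through TRAF2, had 67.2, 96.1 and 84.2 CPM in control and 142, 178 and 184 CPM in senescent FAPs. All senescent libraries exceeded the highest control. On the log2 scale the change was 1.03 (SE 0.15, adjusted p = 0.00153, limma), so transcript of this receptor rose while that of Tnfrsf1a was not called as changed.

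Tnfrsf8 and Cd40, receptors best known from activated lymphocytes and antigen-presenting cells, rose from very low levels. Tnfrsf8 (chr4:145267137-145315164, minus strand), which encodes CD30, had 0, 0.114 and 0.126 CPM (0, 6 and 7 reads) in control and 0.556, 0.803 and 1.08 CPM (28, 48 and 48 reads) in senescent FAPs. The groups were apart, and control replicate 1 had no read (log2 fold change 1.17, SE 0.20, adjusted p = 0.00295, limma). Cd40 (chr2:165055627-165072948, plus strand) had 0.201, 0.627 and 0.0718 CPM (9, 33 and 4 reads) in control and 0.933, 1.76 and 1.91 CPM (47, 105 and 85 reads) in senescent FAPs. Control replicate 2 came nearest to the senescent range but stayed below it (log2 fold change 1.37, SE 0.30, adjusted p = 0.00865, limma). Their ligands differ in what can be said: Tnfsf8 is described with the ligands, and Cd40lg was not analysed here.

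Some leukocyte transcripts rose with these receptors. Of 13 leukocyte markers sought, 6 were listed, and their summed level was 10.1 to 12.3 CPM in control and 22.9 to 28.6 CPM in senescent libraries. Of the 4 that could be tested, 3 rose (Cd53, Lyz2 and Itgam). Csf1r, also tested, averaged 6.74 ± 0.573 CPM in control and 7.56 ± 0.489 CPM in senescent FAPs (SD, n = 3; adjusted p = 0.343, limma). Below the filter, Laptm5 had 0.0223 to 0.0761 CPM in control and 0.203 to 0.596 CPM in senescent libraries. Fcer1g overlapped, with 0.201 to 0.323 CPM and 0.0199 to 0.383 CPM. The other 7 of the 13 sought, among them the defining markers Ptprc and Cd3e, were not analysed here, and no listed marker was at 0 in every library. Cd53, a tetraspanin of leukocytes, had 0.960, 3.92 and 1.08 CPM in control and 8.36, 12.0 and 13.7 CPM in senescent FAPs. The part of leukocytes in the results for Tnfrsf18, Tnfrsf8, Cd40, Tnfrsf1b and the ligands Tnfsf13b and Tnfsf18 was not tested.

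Ltbr and Tnfrsf12a were the members that fell. Ltbr (chr6:125306571-125313885, minus strand), the lymphotoxin beta receptor, had 121, 115 and 121 CPM in control and 103, 101 and 93.9 CPM in senescent FAPs. The highest senescent library lay below the lowest control (log2 fold change -0.26, SE 0.07, adjusted p = 0.0187, limma), yet after division by column totals the change was -0.05 (adjusted p = 0.604). The call was also lost without control replicate 1 (adjusted p = 0.0534), control replicate 3 (0.0677), senescent replicate 2 (0.0572) or senescent replicate 3 (0.0644).

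Tnfrsf12a (chr17:23675445-23677468, minus strand), the TWEAK receptor, had 295, 347 and 287 CPM in control and 255, 252 and 250 CPM in senescent FAPs. The 3 senescent libraries were almost equal and all below the controls. Its log2 fold change was -0.29 (SE 0.09, adjusted p = 0.0313, limma), and after division by column totals it was -0.07 (adjusted p = 0.536). The call was lost without senescent replicate 1 (adjusted p = 0.0626), 2 (0.0958) or 3 (0.0892), and without the variance trend (0.0569).

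The other 5 NF-kB receptors were not called in either direction. Relt averaged 38.8 ± 5.73 CPM and 37.8 ± 4.15 CPM, and Tnfrsf19, a receptor found in stem cells of several epithelia, 1.25 ± 0.673 CPM and 1.55 ± 0.487 CPM (SD, n = 3). Tnfrsf14, the herpesvirus entry mediator, averaged 0.955 ± 0.269 CPM and 1.45 ± 0.310 CPM (log2 fold change 0.43, adjusted p = 0.123, limma). Tnfrsf9, which encodes CD137, ranged from 0.0570 to 0.870 CPM in control and from 0.203 to 0.755 CPM in senescent FAPs. Tnfrsf4, the T cell receptor OX40 and the chromosomal neighbor of Tnfrsf18, had 1.38, 1.20 and 0.718 CPM in control and 0.755, 0.853 and 0.405 CPM in senescent FAPs. Its values were lower in 3 of 3 same-numbered pairs, but the groups overlapped (log2 fold change -0.45, adjusted p = 0.151, limma).

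All 4 genes grouped here as decoy receptors rose. Among them Tnfrsf26, Tnfrsf22 and Tnfrsf23 lie side by side on the minus strand of chromosome 7. Of these, Tnfrsf22 and Tnfrsf23 encode mouse TRAIL receptors that lack a functional death domain. Tnfrsf26 was placed in this role by the grouping used here, and a decoy function of it was not tested. The 3 genes are related in sequence, and reads shared between them could have been split in counting. Tnfrsf26 (chr7:143607659-143628722) had 5.02, 8.63 and 4.43 CPM in control and 11.8, 14.8 and 15.6 CPM in senescent FAPs. Tnfrsf23 (chr7:143665809-143685872) had 82.4, 106 and 70.5 CPM in control and 130, 147 and 139 CPM in senescent FAPs. Tnfrsf22 (chr7:143634806-143649661) had 16.2, 18.3 and 15.0 CPM in control and 21.8, 24.0 and 21.4 CPM in senescent FAPs. Control replicate 2 was the highest control for all 3 genes, and in none of them did it reach the senescent range. The log2 fold changes were 1.20 (SE 0.24, adjusted p = 0.00565), 0.70 (SE 0.14, adjusted p = 0.00591) and 0.44 (SE 0.11, adjusted p = 0.0138) by limma for Tnfrsf26, Tnfrsf23 and Tnfrsf22. The call for Tnfrsf22 was lost without control replicate 3 (adjusted p = 0.0528) or senescent replicate 2 (0.0651).

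Tnfrsf11b (chr15:54250619-54278484, minus strand) encodes osteoprotegerin, the secreted decoy of the bone-resorption cytokine RANKL. It had 40.1, 49.2 and 39.4 CPM in control and 52.7, 60.1 and 71.7 CPM in senescent FAPs, with a small gap between the groups. Its log2 fold change was 0.51 (SE 0.13, adjusted p = 0.0176, limma). Without control replicate 3, senescent replicate 2 or senescent replicate 3 it was not called (adjusted p = 0.0612, 0.0552 and 0.0583).

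Among the ligands that passed the filter, Tnfsf13b and Tnfsf18 had the largest rises. Tnfsf13b (chr8:10006467-10039072, plus strand), which encodes the B cell survival factor BAFF, had 1.38, 2.53 and 2.58 CPM in control and 3.57, 5.69 and 7.02 CPM in senescent FAPs. Replicate 1 was the lowest library of each group, and the groups did not overlap (log2 fold change 1.14, SE 0.28, adjusted p = 0.0136, limma). The call was lost without senescent replicate 2 (adjusted p = 0.0531) or 3 (0.0547). The BAFF receptor genes Tnfrsf13c, Tnfrsf13b and Tnfrsf17 were not analysed here.

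Tnfsf18 (chr1:161494655-161505290, plus strand), which encodes the ligand of GITR, had 0.379, 0.875 and 0.341 CPM in control and 0.774, 2.56 and 2.79 CPM in senescent FAPs. Senescent replicate 1 lay below control replicate 2, so the groups overlapped. Tnfsf18 had a log2 fold change of 1.22 (SE 0.38, adjusted p = 0.0334, limma), and the call was lost without control replicate 1 (adjusted p = 0.0832) or 3 (0.0983) and without senescent replicate 2 (0.115) or 3 (0.117). Both partners of the GITR pair were therefore called higher, the receptor with a smaller relative error than the ligand.

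Tnfsf12, Tnfsf13, the readthrough transcript Tnfsf12Tnfsf13 and the antisense RNA Tnfsf13os overlap within chr11:69682138-69696098. Reads on shared exons, and reads on either strand if strand was not used in counting, cannot be assigned to one of them with certainty. Tnfsf12, which encodes TWEAK, had 16.8, 15.9 and 16.9 CPM in control and 20.7, 21.9 and 19.1 CPM in senescent FAPs. Tnfsf12Tnfsf13 had 12.5, 10.9 and 11.7 CPM in control and 15.6, 16.2 and 13.2 CPM in senescent FAPs. Neither gene overlapped between the groups, and both differences were small. The log2 fold changes were 0.30 (SE 0.09, adjusted p = 0.0323) and 0.34 (SE 0.12, adjusted p = 0.0490) by limma. Tnfsf12 was not called without control replicate 1, 2 or 3 (adjusted p = 0.0632, 0.0554 and 0.0749) or senescent replicate 1 or 2 (0.0734 and 0.130). Tnfsf12Tnfsf13 was not called with the replicate number as a block (adjusted p = 0.0511) or without any library except senescent replicate 3 (0.0594 to 0.172). It also lost the call with a pseudocount of 1 (adjusted p = 0.0502) and with no filter on low values (0.0516). Tnfsf13, which encodes the lymphocyte factor APRIL, averaged 2.31 ± 0.177 CPM and 3.00 ± 0.309 CPM (SD, n = 3; adjusted p = 0.110, limma). Its groups did not overlap, and it was called after division by column totals (adjusted p = 0.0253) and without the variance trend (0.0460).

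Besides Tnfsf13, 4 ligands were not called. Tnfsf15 differed between replicate numbers far more than between groups, with 15.0, 70.9 and 51.6 CPM in control and 19.4, 66.9 and 57.9 CPM in senescent FAPs. Replicate 1 was the low library in both groups (log2 fold change 0.15, adjusted p = 0.865, limma). Tnfsf8, the CD30 ligand gene, had 2.30, 4.85 and 3.91 CPM in control and 1.09, 2.76 and 3.08 CPM in senescent FAPs. Each senescent library lay below the control of the same number while the groups overlapped. The log2 fold change was -0.61, with an adjusted p of 0.198 by limma without the block and 0.0220 with the replicate number as a block. Tnfsf9, the CD137 ligand gene, averaged 3.04 ± 0.507 CPM and 3.65 ± 0.153 CPM, and Tnfsf11, the RANKL gene, 0.987 ± 0.112 CPM and 0.909 ± 0.288 CPM (SD, n = 3).

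Tnf itself stayed below the filter. It had 5, 4 and 6 reads in control and 18, 14 and 10 reads in senescent libraries, or 0.0761 to 0.112 CPM and 0.225 to 0.357 CPM. The groups did not overlap, but every value rested on at most 18 reads. In edgeR's quasi-likelihood test over all listed genes, a setting added after the data were seen, the log2 fold change was 1.45 with an adjusted p of 0.0329. Tnfsf13os had 14, 14 and 21 reads in control and 37, 29 and 30 reads in senescent libraries, with an adjusted p of 0.0507 in the same edgeR test. In limma without the low-value filter both were called, Tnf with a log2 fold change of 0.36 (adjusted p = 0.0479) and Tnfsf13os with 0.46 (adjusted p = 0.0345).

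Levels between genes can be compared only per length of exon. In control FAPs the highest levels were those of Tnfrsf12a, at 160 CPM per kb, Tnfrsf1a, at 79.0 CPM per kb, and Ltbr, at 50.5 CPM per kb. Tnfrsf23 and Tnfrsf1b followed at 21.7 and 21.6 CPM per kb, which did not differ beyond the spread of either gene. In senescent FAPs Tnfrsf12a and Tnfrsf1a still led, at 131 and 80.7 CPM per kb, and Tnfrsf1b, at 44.0 CPM per kb, stood beside Ltbr, at 42.2 CPM per kb. Fas went from 4.10 to 15.8 CPM per kb and Eda2r from 5.88 to 12.6 CPM per kb, the range in which Tnfrsf10b lay (12.5 and 17.3 CPM per kb). Among the ligands, Tnfsf15 (13.7 and 14.4 CPM per kb) and Tnfsf12 (10.9 and 13.6 CPM per kb) had the highest levels, and Tnf was at 0.0601 and 0.166 CPM per kb.

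**Figure D3:**
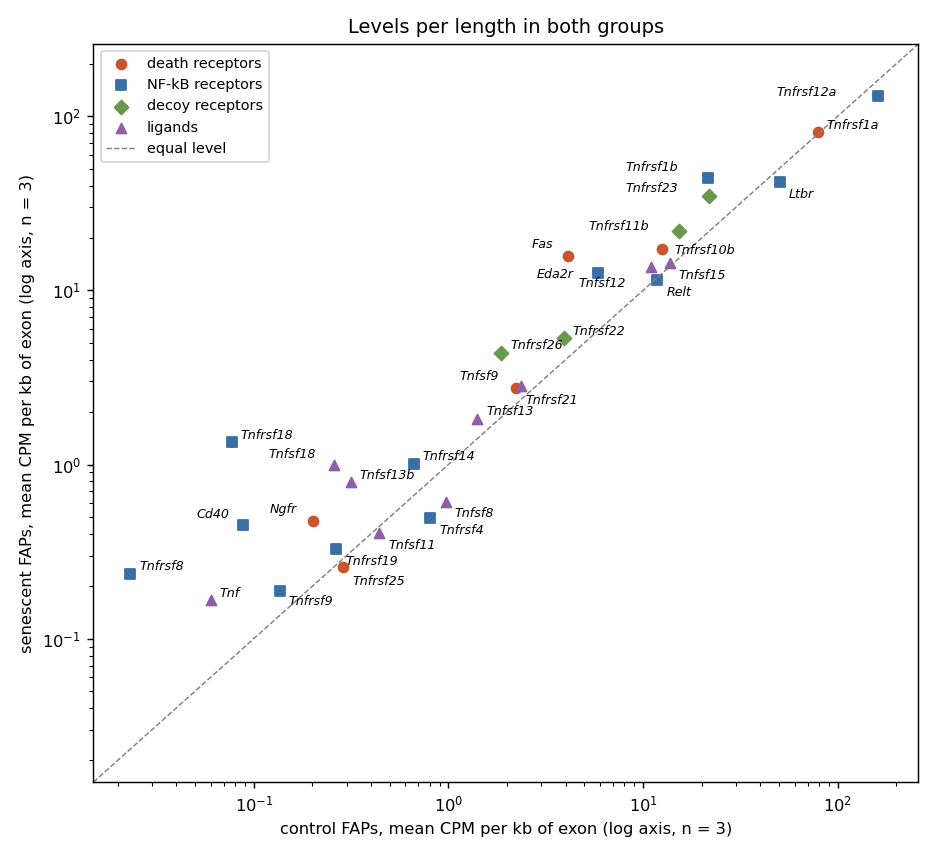
Mean level of each member per kb of exon in control FAPs (horizontal, log axis) against senescent FAPs (vertical, log axis), n = 3 per group, with symbols for the roles and a dashed line of equal level. The readthrough transcript and the antisense RNA are left out, and Tnfrsf18, Tnfrsf8, Cd40 and Fas lie well above the line while Tnfrsf1a (79.0 and 80.7 CPM per kb) lies on it.

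Ratios of 2 transcripts within a library do not depend on how libraries were scaled. Such ratios, 6 in all, were chosen after the values of their genes had been seen, and with 3 libraries against 3 the exact permutation test cannot give a p below 0.1. Tnfrsf1b to Tnfrsf1a, the balance of the TNF receptors, was 0.307, 0.566 and 0.373 in control and 0.663, 0.859 and 0.893 in senescent FAPs. Fas to Tnfrsf1a was 0.0413 ± 0.0106 in control and 0.156 ± 0.0135 in senescent FAPs (SD, n = 3). Both ratios separated the groups without overlap (two-sided exact permutation p = 0.1, adjusted p = 0.15 over the 6 ratios). Eda2r to Eda went from 7.44 ± 0.654 to 12.0 ± 1.87, and the TWEAK receptor to its ligand, Tnfrsf12a to Tnfsf12, from 18.8 ± 2.63 to 12.3 ± 0.780 (SD, n = 3), also without overlap and with the same exact permutation p. Tnfrsf11b to Tnfsf11 (44.0 ± 9.11 and 74.1 ± 31.7, exact permutation p = 0.2) overlapped between the groups. So did the sum of the TRAIL decoys Tnfrsf22 and Tnfrsf23 to the TRAIL death receptor Tnfrsf10b (1.53 ± 0.376 and 1.71 ± 0.138, exact permutation p = 0.7).

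**Figure D4:**
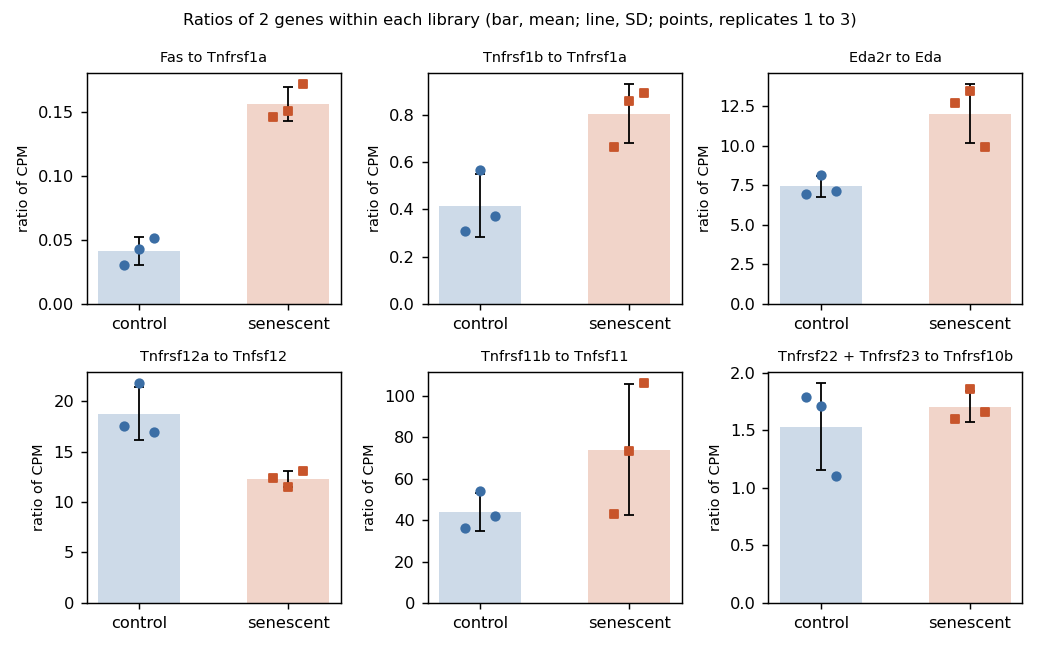
Ratio of CPM within each library for 6 pairs of transcripts, with bars for the mean, lines for the SD and points for replicates 1 to 3. The groups are apart for Fas to Tnfrsf1a, Tnfrsf1b to Tnfrsf1a, Eda2r to Eda and Tnfrsf12a to Tnfsf12, and they overlap for Tnfrsf11b to Tnfsf11 and for the TRAIL decoys to Tnfrsf10b.

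Of 29 ligand and receptor pairs of the family that were listed, both partners were in the table for 9, the receptor alone for 12 and the ligand alone for 7. The pairs with both partners were TNF with its 2 receptors, TWEAK, RANKL with osteoprotegerin, GITR, CD30, CD137, Tnfsf15 with Tnfrsf25, and ectodysplasin with Eda2r.

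Downstream of the receptors, lists of pathway genes were examined, and in each of the 5 the share of tested genes that was called lay below the 46.1% of all genes tested. Of 10 death signaling genes tested, 3 rose and 1 fell, with a median log2 fold change of -0.04. Mlkl, the effector of necroptosis, rose from 19.1 ± 1.63 to 28.0 ± 1.36 CPM, and Cflar, the inhibitor of caspase-8 activation, rose from 112 ± 37.1 to 182 ± 29.9 CPM (SD, n = 3). Fadd, the adaptor of Fas, fell from 7.89 ± 0.560 to 5.69 ± 0.357 CPM (log2 fold change -0.44, adjusted p = 0.0236, limma). Casp8 was at 34.8 ± 2.47 and 33.1 ± 1.67 CPM (SD, n = 3; adjusted p = 0.549, limma).

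Of 20 TRAF and adaptor genes, 3 rose and 3 fell, with a median of -0.04. Ikbkg, the regulatory subunit of the IkB kinase complex, rose from 42.0 ± 2.78 to 78.3 ± 3.20 CPM (log2 fold change 0.89, SE 0.08, adjusted p = 2.76e-04, limma). Map3k14, the kinase of the alternative NF-kB pathway, rose from 17.2 ± 1.93 to 25.1 ± 1.68 CPM, and Traf5 fell from 15.5 ± 0.904 to 10.7 ± 0.990 CPM (SD, n = 3). Of 10 tested inhibitors and ubiquitin-editing genes, 2 rose and 1 fell. The deubiquitinase gene Cyld rose from 34.9 ± 4.14 to 53.9 ± 9.21 CPM, Tnfaip3, which encodes A20, from 14.0 ± 1.48 to 19.6 ± 2.01 CPM, and Otulin fell from 26.1 ± 2.00 to 19.5 ± 2.34 CPM (SD, n = 3). After division by column totals none of the genes in these 3 lists was called lower, and 4, 5 and 4 were called higher.

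Of 5 tested genes that act in or restrain the shedding of TNF ligands and receptors from the membrane, 1 rose and 1 fell. Rhbdf2, which encodes iRhom2, the partner that brings ADAM17 to the cell surface, had 2.30, 3.02 and 2.50 CPM in control and 7.76, 9.45 and 8.75 CPM in senescent FAPs (log2 fold change 1.56, SE 0.15, adjusted p = 3.51e-04, limma). Adam17, the TNF-converting protease, had 81.2, 73.0 and 83.9 CPM in control and 65.0, 61.8 and 67.7 CPM in senescent FAPs. Rhbdf2 was thus higher and Adam17 lower without overlap (log2 fold change of Adam17 -0.29, adjusted p = 0.0215, limma), but Adam17 was not called after division by column totals.

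Of 16 tested NF-kB target genes, 5 rose and 1 fell, with a median log2 fold change of 0.06. The adhesion molecule gene Icam1 rose from 3.16 ± 1.60 to 59.9 ± 7.21 CPM, Vcam1 from 34.1 ± 1.76 to 77.4 ± 5.73 CPM and the chemokine gene Ccl2 from 43.0 ± 18.5 to 201 ± 4.27 CPM (SD, n = 3). The fall was that of Tnfaip2. After division by column totals 9 of these targets were called higher and 1 lower. Of the pathway genes named with a call, Mlkl, Ikbkg, Map3k14, Rhbdf2, Icam1, Vcam1 and Ccl2 kept it in every alternative (highest adjusted p over the alternatives = 0.0351, for Map3k14). Fadd, Cflar, Traf5, Cyld, Tnfaip3, Otulin, Adam17 and Tnfaip2 lost it in at least 1, with highest adjusted p from 0.0502 for Traf5 to 0.436 for Adam17. These lists were chosen with results of the same libraries known, so their counts describe the libraries and nothing more.

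**Figure D5:**
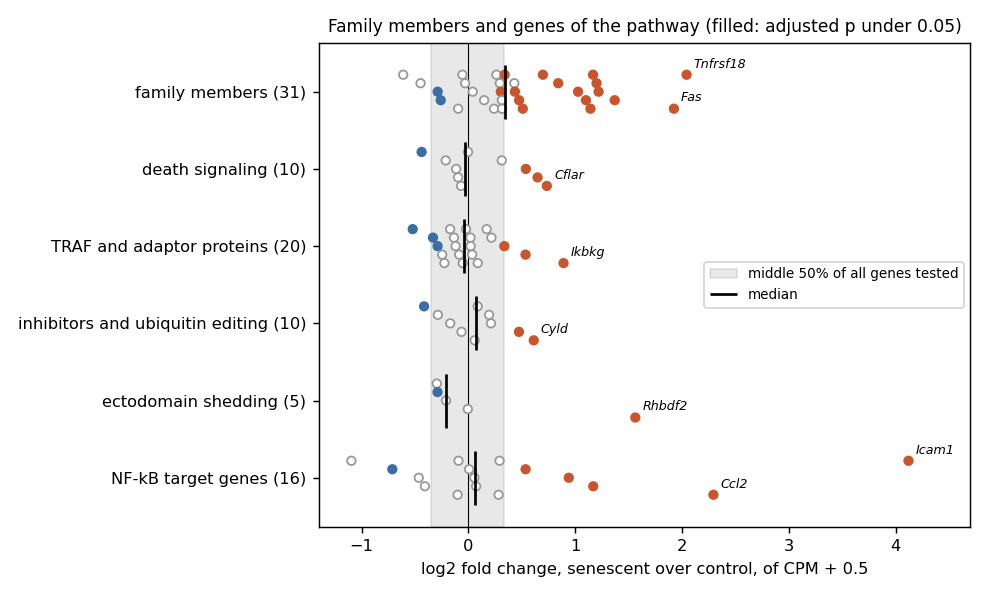
Log2 fold change (senescent over control, of CPM + 0.5; horizontal axis) of the tested family members and of 5 lists of pathway genes, with filled points for genes called by limma, black bars for medians and a grey band for the middle 50% of all genes tested (-0.35 to 0.34). The family median (0.34) sits at the right edge of the band, and the list medians (-0.21 to 0.07) lie within it.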

How the data were processed

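RNA-seq libraries came from a stranded mRNA kit. The authors scaled read counts with edgeR (version 3.10, R 3.6.0, per the labels, which name the mm10 build) and deposited the signal, CPM of the effective library size, per gene and library. The aligner, counter, annotation and strand setting are not given in the sources used here. Whole reads were recovered for 100% of values, and 1 row that names no gene (0.00409% to 0.00699% of reads) was left out.

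Of the 16894 genes, 14776 reached 0.5 CPM in 3 or more of the 6 libraries and were tested together by limma (version 3.58.1, R 4.3.3) with a variance trend on log2(CPM + 0.5). Tests were two-sided with Benjamini-Hochberg adjustment at 0.05. The procedure was tested on simulated libraries that were drawn independently and held far fewer changed genes than were called here. That run therefore does not cover the pairing of libraries or the breadth of the change in these data. Members and gene lists were chosen with earlier results of these data known. All members were named, and of each pathway list the 3 called genes with the smallest p. Casp8, Cd53, S100b, Itga7, Pecam1, the FAP markers and Tnfaip2 were singled out after their values were seen.

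Same-numbered control and senescent libraries deviated together (correlations of their deviations from the group means of 0.537, 0.308 and 0.207). Between libraries of different number these correlations ran from -0.357 to 0.153. The numbers, taken from the labels, were treated as pairs in an alternative fit. The other alternatives were pseudocounts of 0.1 and 1, no filter or 2 CPM, median-of-ratios scaling, division by column totals, no variance trend, edgeR 4.0.16, DESeq2 1.42.0, each library left out, the study's thresholds and, added after seeing the data, edgeR on all listed genes. Coordinates are GENCODE M21 (GRCm38, the same build as mm10), with the readthrough transcript from RefSeq.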

Additional observations from a re-analysis of the deposited data

How the results depend on the processing

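Across 17 alternatives that keep the adjusted threshold, 516 log2 fold changes of members were recomputed: 461 kept their direction and their side of the threshold, 36 lost the call, 5 gained one and 14 changed sign. Those 14 belonged to 5 members that were called in no alternative. Leaving out 1 library at a time, log2 fold changes ran from -0.51 to 0.70 for Tnfsf15, -0.33 to 0.10 for Tnfrsf25, -0.088 to 0.12 for Tnfrsf1a, -0.092 to 0.087 for Relt and -0.25 to 0.026 for Tnfsf11. After division by column totals they were 0.059 for Tnfrsf25, 0.18 for Relt and 0.043 for Tnfsf11, and by DESeq2 0.0037 for Relt. Of the 18 members called, 9 were called in each of these that tested them, all higher: Fas, Ngfr, Tnfrsf26, Tnfrsf23, Tnfrsf18, Eda2r, Tnfrsf1b, Tnfrsf8 and Cd40. Of these, Ngfr, Tnfrsf18, Tnfrsf8 and Cd40 were too low to be tested at the filter of 2 CPM. Tnfrsf18 and Tnfrsf8 passed the filter of 0.5 CPM only through the senescent libraries, so their calls depend on that filter. Division by column totals gave 4992 genes higher and 1929 lower over all genes, with 18 members higher and 0 lower. Leaving out 1 library at a time gave 2130 to 3405 genes higher and 2416 to 3875 lower, with 9 to 15 members higher and 0 to 2 lower. Senescent replicate 2 mattered most: without it 2130 genes and 9 members were higher and 0 members lower. Members called lower also numbered 0 without senescent replicate 3, and 1 without control replicate 1, control replicate 3 or senescent replicate 1. Without the variance trend 1 member was lower. With the study's thresholds (raw p below 0.01, log2 change over 1 in size) applied to the limma fit, 1024 genes were higher and 576 lower, with 8 members higher and 0 lower. The paper's own counts came from edgeR, so these are not a repeat of them. With the replicate block, 15 members were higher and 3 lower, and the pairing changed no member's call but those of Tnfsf8 and Tnfsf12Tnfsf13. At a filter of 2 CPM, 20 members could be tested, 11 higher and 2 lower. At this depth Tnf rests on 4 to 18 reads a library, which limits its precision. The cause of these changes was not tested.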
